A study of Mus musculus with 4 samples.

Results

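The genes described here encode 9 enzymes that cut lysophospholipids and glycerophosphodiesters: Enpp2, Enpp6, Gdpd1, Gdpd3, Gde1, Gpcpd1, Gdpd5, Lypla1 and Lypla2. They were chosen by the gene name of their array probes, and 12 of the 39429 different probes on each array, or 9 of 22327 named genes, belong to them. All 9 were on the arrays, 8 had signal well above background on all 4 arrays, and Enpp6 had none on any array. The mice were C57BL/6N, 4 weeks old and either labelled Pnpla7-/- (knockout) or wild type, and the tissues were liver and white adipose tissue, written WAT. Each of the 4 groups (labelled Pnpla7-/- liver, wild-type liver, labelled Pnpla7-/- WAT and wild-type WAT) was 1 pool of RNA from 5 animals on 1 one-colour array. Every difference thus lacks a replicate check, and no test and no p-value is given. Neither the fat depot nor the removed part of Pnpla7 is given in the sources used here. The labels' protocol names liver as the source of RNA for all samples.

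Phosphatidylcholine loses its fatty acids one after the other. Once the first is gone, lysophosphatidylcholine remains, and lysophospholipases such as PNPLA7 remove the other to leave glycerophosphocholine. Glycerophosphodiester phosphodiesterases then split glycerophosphocholine into choline and glycerol 3-phosphate, and choline can be oxidised in liver to give methyl groups to the methionine cycle. Other enzymes compete for lysophosphatidylcholine. The secreted lysophospholipase D autotaxin (ENPP2) and the membrane enzymes GDPD1 and GDPD3 cut off its head group and leave lysophosphatidic acid (LPA), a ligand of G protein-coupled receptors. The series, by its title, concerns the choline that PNPLA7 and PNPLA8 free in liver.

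The sequences of 4 probes are shown. Each has an open reading frame and was taken to lie in coding RNA, which was not checked against a transcript sequence. Those of Enpp2, Gpcpd1 and Gde1 read genes whose level differed between genotypes by more than the model error allows. That of Lypla1 holds the catalytic site. They are 60 bases long and are given 5′ to 3′ as printed on the array, and the scanner files give their positions on build mm9. The Enpp2 probe lies at chr15:54670921-54670980 on the minus strand and ends in the stop codon of its open frame (in capitals). The Gpcpd1 probe lies at chr2:132379701-132379760 on the minus strand, from base 610 of the transcript. The Gde1 probe lies at chr7:125832643-125835134 on the minus strand. Its 60 bases span 2492 bases of genome, so it crosses an intron and reads spliced RNA. The Lypla1 probe from base 320 of the transcript lies at chr1:4827095-4827154 on the plus strand, and its capitals are the codons of glycine, phenylalanine and serine, where the serine is the nucleophile of the esterase.
Enpp2: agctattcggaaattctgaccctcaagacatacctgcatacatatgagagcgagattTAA
Gpcpd1: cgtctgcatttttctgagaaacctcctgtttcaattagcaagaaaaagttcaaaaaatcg
Gde1: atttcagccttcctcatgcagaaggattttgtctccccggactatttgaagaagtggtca
Lypla1: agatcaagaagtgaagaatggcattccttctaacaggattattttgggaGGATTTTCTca

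No other probe of the array shared a run of 20 bases with a probe of these genes, on either strand, apart from the pair of Lypla2 probes, which overlap each other by 53 bases. Lypla2 therefore has 2 probes but 1 stretch of RNA behind them. The pair of Lypla1 probes lies far apart in the transcript, from bases 320 and 1718. The other genes with signal have 1 probe each, so their values have no second probe as a check. The Gdpd1 probe lies at chr11:86847492-86847551 on the minus strand, from base 2228 of the transcript, and the Gdpd3 probe at chr7:133914520-133914693 on the plus strand, where it spans 174 bases of genome and so crosses an intron. The Gdpd5 probe lies at chr7:106609102-106609161 on the plus strand.

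Between 65.5% and 72.6% of the spots other than controls were well above background on the 4 arrays, and 0 were saturated. Levels are given as the scanner software's processed signal divided by the array's 75th percentile, and as its log2. Probes bind with different strength, so levels are compared between arrays and not between genes. Errors of log2 ratios come from the software's error model, which is about 0.20 for 1 probe and rests largely on a multiplicative error of 0.1 that the file headers give as preset. Different probes of a gene varied by a pooled SD of 0.20 for ratios in liver and 0.23 in WAT. None of these errors covers the variation between animals. The level of Pnpla7 was 7.98 in labelled Pnpla7-/- liver and 9.04 in wild-type liver (log2 ratio -0.18 ± 0.20, model error), and 0.372 in labelled Pnpla7-/- WAT and 0.739 in wild-type WAT (-0.99 ± 0.20). Whether the probe lies outside the removed part was not tested, so directions rest on the labels. Hepatocyte markers were at least 2-fold lower in WAT than in liver for 11 of 12 genes on the labelled Pnpla7-/- arrays and 12 of 12 on the wild-type arrays, and adipocyte markers were at least 2-fold higher for 6 of 6 and 7 of 7 measured genes.

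Of the lysophospholipid and glycerophosphodiester hydrolases, 0 of 8 measured genes differed by 2-fold between labelled Pnpla7-/- and wild-type liver, where 2.64% of all 15568 measured genes did (1.75% higher and 0.886% lower). In WAT the count was also 0 of 8, where 4.18% of 16131 genes did (2.16% higher and 2.01% lower). In liver, Gdpd1 and Enpp2 were higher and Gpcpd1 lower by more than 2 model errors, which 17.1% of all genes reached. In WAT, Gde1, Enpp2 and Lypla1 were higher and Gdpd5 lower by that measure, which 25.9% of all genes reached. The median log2 ratio of the 8 genes was 0.02 in liver and 0.29 in WAT, beside -0.03 and 0.02 for all genes. The median size of the ratio, whatever its sign, was 0.26 in liver beside 0.16 for all genes, and 0.33 in WAT beside 0.21.

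**Figure D1:**
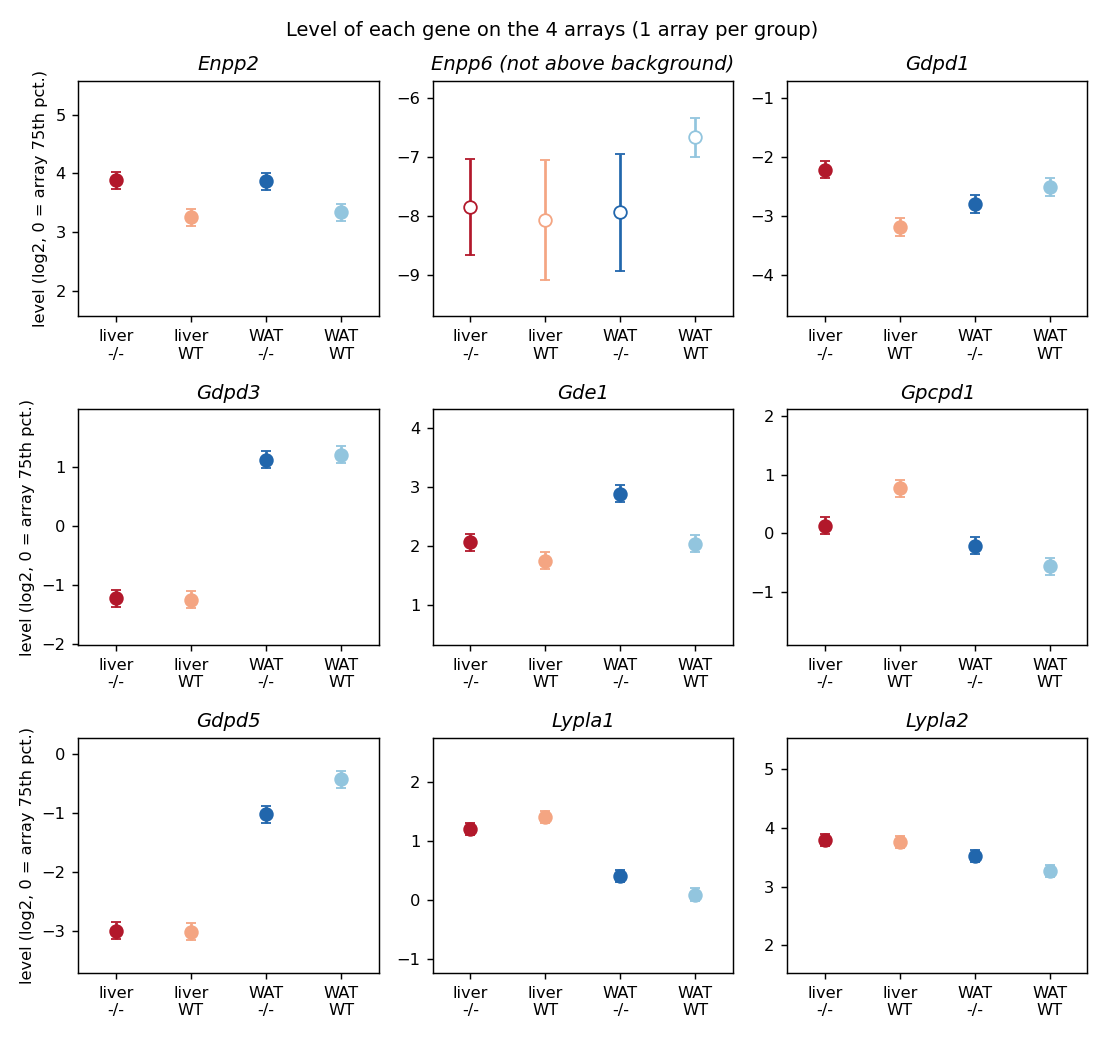
Level of each of the 9 genes on the 4 arrays, as log2 of the processed signal with 0 at the array's 75th percentile. Points are 1 array each (mean over probes), bars 1 model error, and open points have no probe well above background. Each panel has its own vertical axis. Gdpd3 and Gdpd5 separate the tissues, Enpp2 separates the genotypes in both tissues, and Gdpd1 is lowest in wild-type liver with this background correction.

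Enpp2 encodes autotaxin, the secreted enzyme that makes most of the LPA of blood plasma. Its level was 14.7 in labelled Pnpla7-/- liver and 9.57 in wild-type liver. In WAT it was 14.6 in labelled Pnpla7-/- and 10.1 in wild type. The labelled Pnpla7-/- arrays of both tissues thus lay above both wild-type arrays, and within a genotype the tissues were nearly level. The log2 ratio was 0.62 ± 0.20 in liver (1.54-fold) and 0.52 ± 0.20 in WAT (1.44-fold). In liver 7.19% of all genes had a ratio of at least this size, and in WAT 16.6%. In the order of the 4 levels, the gap between the lower labelled Pnpla7-/- array and the higher wild-type array was 0.52, while the gaps within each genotype, 0.02 and 0.08, were below their model error of 0.20. After quantile normalization WAT lay above liver by 0.31 in labelled Pnpla7-/- and by 0.50 in wild type. The ratios between genotypes were then 0.67 in liver and 0.49 in WAT. Over the 7 alternatives they lay between 0.62 and 0.70 in liver and between 0.49 and 0.52 in WAT. The genotype ratio within each tissue thus held. The levels of the tissues, and so the gap of 0.52 across tissues, depended on the normalization.

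Gdpd1 encodes GDE4, a membrane-bound lysophospholipase D that also frees N-acylethanolamines from their lysophospholipid precursors. Its level was 0.215 in labelled Pnpla7-/- liver and 0.109 in wild-type liver. It was 0.144 in labelled Pnpla7-/- WAT and 0.176 in wild-type WAT. As processed by the scanner software, wild-type liver was the lowest of the 4 arrays and labelled Pnpla7-/- liver the highest, with WAT in between. The log2 ratio in liver was 0.97 ± 0.21 (1.97-fold), just under the 2-fold limit, and 2.81% of all genes had a ratio of at least this size. In WAT it was -0.29 ± 0.21, within 2 model errors. Neighbours in the order of the levels (0.29, 0.29 and 0.39 apart on the log2 scale) each differed by less than 2 model errors, while the ends of the order did not.

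The size of the Gdpd1 ratio depended on how background was taken off a dim spot. The raw spot signal was 432 in labelled Pnpla7-/- liver over a local background of 33.5, and 215 in wild-type liver over a local background of 34.0. The processed signal was 379 in labelled Pnpla7-/- liver and 161 in wild-type liver. When the local background was taken off by a normexp fit with an offset of 50 instead of the scanner software's correction, the log2 ratio in liver was 0.34, and 0.42 with an offset of 0. The same change of setting moved the median ratio of all genes in liver by -0.16, to -0.19 with the offset of 50. The direction held in all 7 alternatives, between 0.34 and 1.02, and the size did not.

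Gdpd3 encodes GDE7, a relative of GDPD1 with the same kind of activity. Its level was 0.427 in labelled Pnpla7-/- liver and 0.421 in wild-type liver, and 2.19 in labelled Pnpla7-/- WAT and 2.32 in wild-type WAT. The tissues were far apart and the genotypes were not: the log2 ratio between genotypes was 0.02 ± 0.21 in liver and -0.08 ± 0.20 in WAT. In liver 92.5% of all genes, and in WAT 77.9%, had a ratio at least as large.

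Enpp6 encodes a membrane phosphodiesterase that acts on choline lipids, among them lysophosphatidylcholine and glycerophosphocholine, and frees phosphocholine. Its probes, at chr8:48154284-48154343 and chr8:48179484-48179543 on the plus strand, were not well above background on any array. Their levels were 0.00551 and 0.00340 in labelled Pnpla7-/- liver and 0.00349 and 0.00401 in wild-type liver. In labelled Pnpla7-/- WAT they were 0.00390 and 0.00424, and in wild-type WAT 0.00814 and 0.0119. Each lies under the lowest level of any probe well above background on its array, which was between 0.0126 and 0.0183. A difference in Enpp6 was thus not detectable at this signal, and no ratio is given.

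Gde1 encodes a broadly expressed phosphodiesterase of glycerophosphoinositol and of glycerophospho-N-acylethanolamines. Its level was 4.20 in labelled Pnpla7-/- liver and 3.37 in wild-type liver. In labelled Pnpla7-/- WAT it was 7.42, against 4.13 in wild-type WAT. Labelled Pnpla7-/- WAT lay above the other 3 arrays, and those lay within 0.32 of each other on the log2 scale. The log2 ratio was 0.85 ± 0.20 in WAT (1.80-fold), a size reached by 6.16% of all genes, and 0.32 ± 0.20 in liver, within 2 model errors.

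Gpcpd1 encodes GDE5, which splits glycerophosphocholine into choline and glycerol 3-phosphate and so acts directly on the product of PNPLA7. Its level was 1.09 in labelled Pnpla7-/- liver and 1.70 in wild-type liver. In WAT it was 0.866 in labelled Pnpla7-/- and 0.680 in wild type. Wild-type liver stood above the other 3 arrays. The log2 ratio in liver was -0.64 ± 0.20, or 64.2% of wild type, a size reached by 6.84% of all genes in either direction, with 2.95% of genes lower than Gpcpd1. In WAT the ratio was 0.35 ± 0.20, within 2 model errors.

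Gdpd5 encodes GDE2, a membrane enzyme known to cleave glycosylphosphatidylinositol anchors and to break down glycerophosphocholine in kidney cells. Its level was 0.125 in labelled Pnpla7-/- liver and 0.124 in wild-type liver. In WAT it was 0.493 in labelled Pnpla7-/- and 0.744 in wild type. Liver was low and level across genotypes, and the wild-type WAT array was the highest. The log2 ratio was -0.59 ± 0.20 in WAT, or 66.3% of wild type, a size reached by 13.5% of all genes. In liver the ratio was 0.02 ± 0.21 and turned to -0.32 with normexp at an offset of 50 and -0.35 at an offset of 0, so the liver value has no settled direction.

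Lypla1 and Lypla2 encode the acyl-protein thioesterases APT1 and APT2, which were first described as lysophospholipases and are known to remove palmitate from proteins. The Lypla1 probe from base 320 read 1.17 in labelled Pnpla7-/- liver and 1.35 in wild-type liver, and the probe from base 1718 read 4.53 in labelled Pnpla7-/- liver and 5.27 in wild-type liver. In WAT they read 0.624 and 2.85 in labelled Pnpla7-/-, and 0.502 and 2.27 in wild type. The 2 probes gave nearly the same log2 ratios, -0.20 and -0.22 in liver and 0.31 and 0.33 in WAT. Their mean was -0.21 ± 0.14 in liver and 0.32 ± 0.14 in WAT, and 40.6% and 33.1% of all genes had ratios at least as large. Lypla2 averaged 13.8 in labelled Pnpla7-/- liver and 13.5 in wild-type liver, with a log2 ratio of 0.03 ± 0.14. In WAT it averaged 11.5 in labelled Pnpla7-/- and 9.59 in wild type, with a ratio of 0.26 ± 0.14. The error of 0.14 counts the 2 probes of a gene as independent, which the overlapping Lypla2 probes are not. With the error of 0.20 that genes with 1 probe have, the Lypla1 ratio in WAT would lie within 2 model errors.

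**Figure D2:**
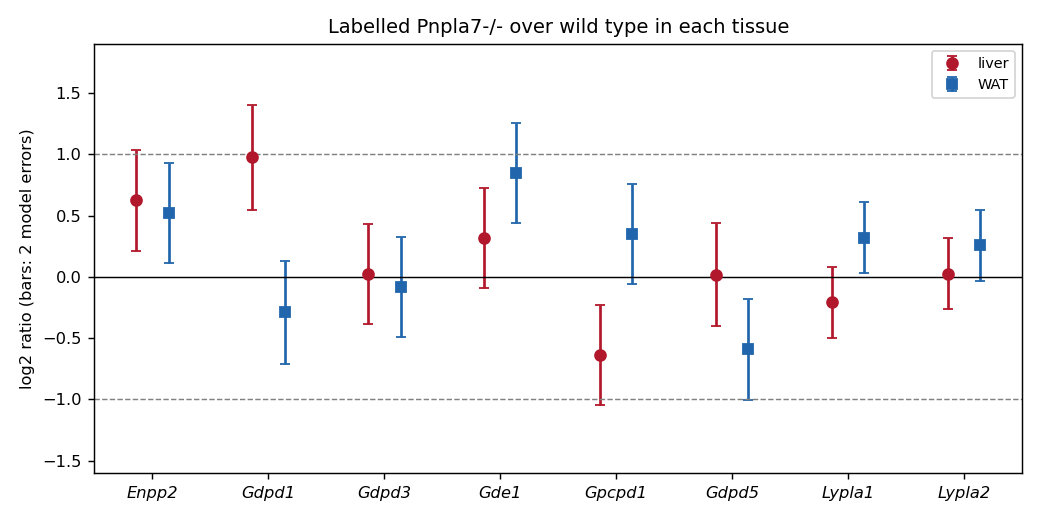
Log2 ratio of labelled Pnpla7-/- over wild type for the 8 measured genes, in liver (circles) and WAT (squares). Bars span 2 model errors on each side, and dashed lines mark 2-fold. In liver the bars of Gdpd1 (0.97), Enpp2 (0.62) and Gpcpd1 (-0.64) clear 0, in WAT those of Gde1 (0.85), Enpp2 (0.52), Lypla1 (0.32) and Gdpd5 (-0.59).

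Markers of other cells differed between the same arrays. In liver, 8 of 8 proliferation markers were at least 2-fold higher in labelled Pnpla7-/-, with summed levels of 7.50 in labelled Pnpla7-/- and 2.55 in wild type. Hepatocyte markers stayed within 2-fold for 12 of 12 genes (summed levels 1597 in labelled Pnpla7-/- and 1874 in wild type). Fibroblast and stellate markers stayed within 2-fold for 7 of 7 (79.4 in labelled Pnpla7-/- and 65.9 in wild type). Macrophage markers were at least 2-fold higher for 1 of 9 measured genes (16.6 in labelled Pnpla7-/- and 15.3 in wild type). Adipocyte markers were at least 2-fold higher for 2 of 6 measured genes (15.8 in labelled Pnpla7-/- and 9.21 in wild type), and the defining adipocyte genes Adipoq, Plin1, Lep and Cfd were not measured in the liver pair. In the pooled tissue, fewer cells of a type and less RNA per cell cannot be told apart, and the part of these cell types in the values of Gdpd1, Enpp2 and Gpcpd1 was not tested.

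In WAT, 12 of 12 skeletal muscle markers were at least 2-fold higher in labelled Pnpla7-/-, with summed levels of 51.3 in labelled Pnpla7-/- and 3.58 in wild type. Of the thermogenic adipocyte markers 8 of 8 were at least 2-fold higher (217 in labelled Pnpla7-/- and 61.1 in wild type), and 3 of 6 measured epithelial markers were (8.25 in labelled Pnpla7-/- and 2.38 in wild type). General adipocyte markers stayed within 2-fold for 9 of 10 genes (933 in labelled Pnpla7-/- and 849.6 in wild type). The other gene, Lep, was lower, at 0.746 in labelled Pnpla7-/- and 2.97 in wild type (log2 ratio -1.99). Hepatocyte markers were at least 2-fold lower for 5 of 12 genes, and 9 of 12 had a negative ratio. Their summed level was 221 in labelled Pnpla7-/- and 160 in wild type, of which Cyp2e1 (116 in labelled Pnpla7-/- and 59.4 in wild type) and Trf (95.2 in labelled Pnpla7-/- and 78.6 in wild type) made up most. The other 10 genes summed to 9.27 in labelled Pnpla7-/- and 21.7 in wild type, a split made after the values were seen. Macrophage markers were at least 2-fold higher for 2 of 10 genes and lower for 2 (7.80 in labelled Pnpla7-/- and 12.4 in wild type), endothelial markers lower for 1 of 6 (13.0 in labelled Pnpla7-/- and 16.4 in wild type). The part of these cells in the values of Gde1, Gdpd5, Enpp2 and Lypla1 was not tested.

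**Figure D3:**
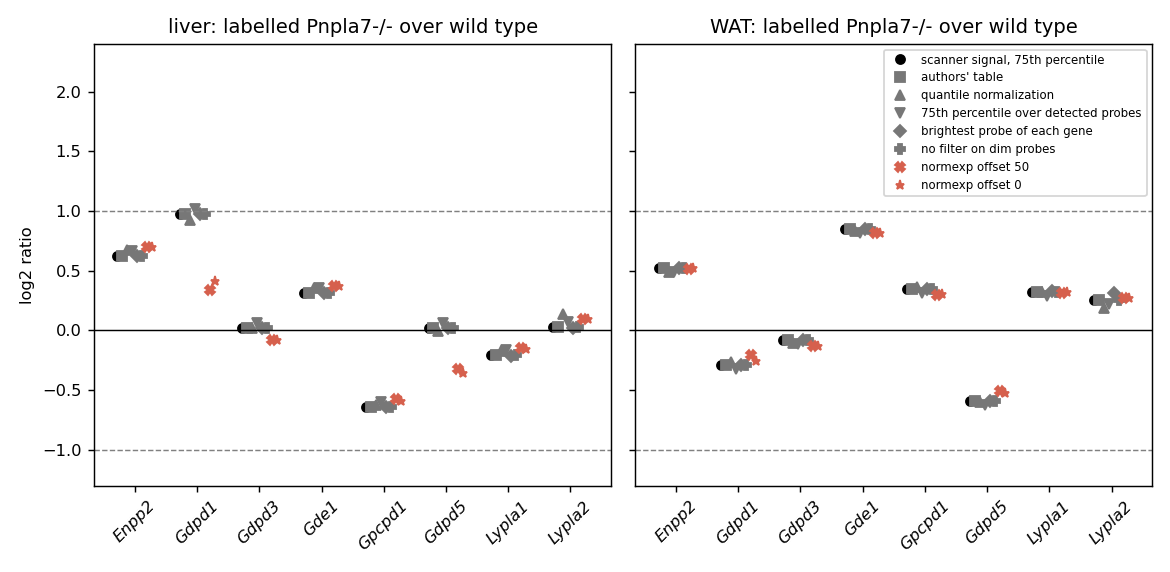
Log2 ratio of labelled Pnpla7-/- over wild type for each gene under the scanner software's signal scaled to the 75th percentile (black) and 7 alternatives (grey, or red for normexp background correction), in liver (left) and WAT (right). Dashed lines mark 2-fold. Among these ratios, the liver values of Gdpd1 (0.97 as processed by the scanner software, 0.34 with normexp at an offset of 50) and Gdpd5 (0.02 and -0.32) moved by more than the spread between probes of a gene (0.20 in liver and 0.23 in WAT).

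Between tissues, Gdpd3 and Gdpd5 were the WAT-rich genes of the group. On the wild-type arrays Gdpd5 was 6.00-fold and Gdpd3 5.50-fold higher in WAT than in liver (log2 ratios 2.59 ± 0.21 and 2.46 ± 0.20). With normexp at an offset of 50 Gdpd5 was at 1.92 and Gdpd3 at 2.27, and at an offset of 0 at 2.08 and 2.35. The size for Gdpd5 thus changed with the background correction. The order of the pair turned there, and also after quantile normalization (Gdpd5 2.43, Gdpd3 2.46). Gpcpd1 was 2.50-fold lower in WAT (-1.32 ± 0.20), and Lypla1 2.50-fold lower (-1.32 ± 0.14, its probes at -1.42 and -1.22). Thus 4 of 8 genes differed by 2-fold, where 33.7% of 15305 genes did (18.1% higher and 15.6% lower), and 6 of 8 by more than 2 model errors, where 63.6% did. On the labelled Pnpla7-/- arrays 2 of 8 did, Gdpd3 (2.35 ± 0.20, 5.11-fold) and Gdpd5 (1.97 ± 0.21, 3.93-fold), where 31.4% of 15338 genes did (17.7% higher and 13.7% lower), and 5 of 8 passed 2 model errors, where 61.7% did. Gpcpd1 (-0.33 ± 0.20) and Lypla1 (-0.79 ± 0.14) were lower in WAT there by less than 2-fold. Gde1 was higher in WAT, at 0.82 ± 0.20 in labelled Pnpla7-/- and 0.29 ± 0.20 in wild type. Lypla2, with its overlapping probes, was lower in WAT, at -0.27 ± 0.14 in labelled Pnpla7-/- and -0.50 ± 0.14 in wild type. After quantile normalization Lypla2 was at 0.01 in labelled Pnpla7-/- and -0.04 in wild type. Gdpd1 was higher in WAT than in liver in wild type (0.68 ± 0.21) and lower in WAT in labelled Pnpla7-/- (-0.58 ± 0.21), and with normexp at an offset of 50 the wild-type value was 0.12. Enpp2 was level between tissues, at -0.02 ± 0.20 in labelled Pnpla7-/- and 0.08 ± 0.20 in wild type, although quantile normalization put it at 0.31 and 0.50. The wild-type and labelled Pnpla7-/- tissue ratios use different arrays.

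**Figure D4:**
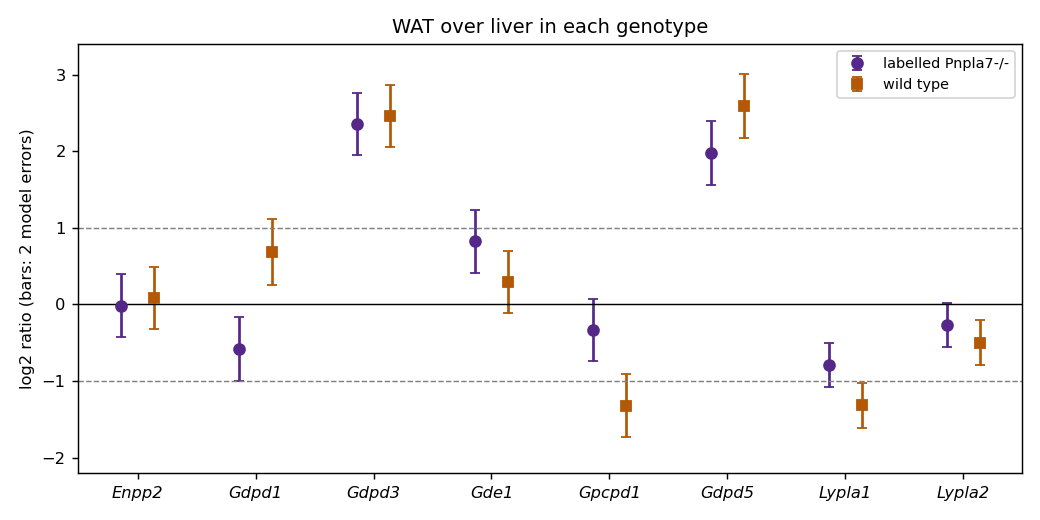
Log2 ratio of WAT over liver for the 8 measured genes on the labelled Pnpla7-/- arrays (circles) and the wild-type arrays (squares). Bars span 2 model errors on each side, and dashed lines mark 2-fold. Gdpd3 and Gdpd5 lie above 2-fold in both genotypes, Gpcpd1 and Lypla1 lie below -1 in wild type only, and Gdpd1 lies on opposite sides of 0.

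The difference between the WAT ratio and the liver ratio (labelled Pnpla7-/- over wild type in each) reached 1 on the log2 scale for 1 of 8 genes, Gdpd1, at -1.27 ± 0.30, where 8.14% of 14896 genes measured in both pairs did. With normexp at an offset of 50 it was -0.54. Gpcpd1 followed at 0.99 ± 0.29, and lay between 0.87 and 0.99 in the 7 alternatives. Gdpd5 (-0.61 ± 0.29) and Lypla1 (0.53 ± 0.20) also exceeded 2 model errors, and Gdpd5 was at -0.18 with normexp at an offset of 50. The error of Lypla1 counts its 2 probes as independent. With an error of about 0.29, as genes with 1 probe have, its difference would lie within 2 model errors. Gde1 (0.53 ± 0.29), Lypla2 (0.23 ± 0.20), Gdpd3 (-0.11 ± 0.29) and Enpp2 (-0.10 ± 0.29) differed by less than 2 model errors. With 1 array in each group none of these differences was tested.

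Related genes were grouped in 7 lists. Among other members of the GDPD and ENPP families, 0 of 4 measured genes reached 2-fold in liver (median log2 ratio -0.10) and 1 of 5 in WAT (median 0.48). That gene was Enpp1, a nucleotide pyrophosphatase, at 0.061 in labelled Pnpla7-/- WAT and 0.028 in wild-type WAT, with a log2 ratio of 1.11 that was 0.58 with normexp at an offset of 50 and 0.71 with its brightest probe alone. In liver the largest were Enpp4 (0.33), Enpp3 (-0.32) and Enpp5 (-0.27). Gdpd4 and Enpp7 were not measured in either tissue, nor Gdpd2 in liver.

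Other lysophospholipases and phospholipases stayed within 2-fold for 10 of 10 measured genes in each tissue, with medians of -0.14 in liver and 0.06 in WAT. The largest in liver were Lyplal1 (-0.40), a relative of the Lypla genes, and Pnpla8 and Pnpla6 (-0.23 and 0.23). In WAT they were Pnpla7 itself (-0.99), Lcat (-0.63), which esterifies cholesterol in plasma, and Pnpla8 (0.37). Of the enzymes that put a fatty acid back on lysophospholipids, 5 of 5 in liver and 6 of 6 in WAT stayed within 2-fold. The liver ratios ran from -0.26 for Lpcat3, which makes polyunsaturated phosphatidylcholine, to -0.03 for Mboat7, each within 2 model errors. Their median was -0.24 beside -0.03 for all genes. Hepatocyte markers (-0.24) and protein depalmitoylases (-0.23) had similar medians in liver. In WAT Lpcat1 was at -0.49, Mboat2 at -0.37 and Lclat1 at 0.35.

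Receptors of LPA and the phosphatases that break it down had 1 of 8 measured genes at least 2-fold higher in liver and 0 of 9 in WAT, with medians of -0.09 and -0.06. The liver gene was Lpar4, an LPA receptor, at 0.078 in labelled Pnpla7-/- and 0.029 in wild type. Its log2 ratio of 1.42 turned to -0.06 with normexp at an offset of 50 and -0.03 at an offset of 0, so it has no settled direction. The largest in WAT were the receptors Lpar5 (0.87), Lpar1 (-0.64) and Lpar3 (0.64), all dim, at no more than 0.076 on either array.

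Enzymes that use choline or glycerol 3-phosphate, the products of glycerophosphocholine, had 0 of 13 measured genes at 2-fold in liver (median -0.10) and 2 of 13 in WAT (median 0.27), both higher. These were Gk, glycerol kinase, at 0.382 in labelled Pnpla7-/- WAT and 0.120 in wild-type WAT (log2 ratio 1.67 ± 0.21, 3.17-fold), and Gpd2, the mitochondrial glycerol 3-phosphate dehydrogenase, at 7.15 in labelled Pnpla7-/- WAT and 3.06 in wild-type WAT (1.22 ± 0.20, 2.34-fold). With normexp at an offset of 50 they were at 1.37 and 1.26. The 12 skeletal muscle and 8 thermogenic markers were higher on the same array, and their part in these values was not tested. In liver the largest ratios were those of Chka (0.69), choline kinase, Bhmt (-0.49), which passes a methyl group from the choline product betaine to homocysteine, and Chpt1 (-0.40).

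The 4 enzymes of N-acylethanolamine turnover stayed within 2-fold in each tissue (medians 0.10 in liver and 0.04 in WAT). Napepld, which makes these lipids from N-acylated phosphatidylethanolamine, was at 0.64 in liver, and Naaa, which breaks them down in lysosomes, at -0.69 in WAT. Protein depalmitoylases stayed within 2-fold for 7 of 7 genes in each tissue (medians -0.23 and -0.01). The largest in liver were Abhd17c (-0.44), Lyplal1 (-0.40) and Abhd17b (0.38), and in WAT Abhd17c (-0.30), Ppt1 (-0.16) and Abhd10 (0.13).

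**Figure D5:**
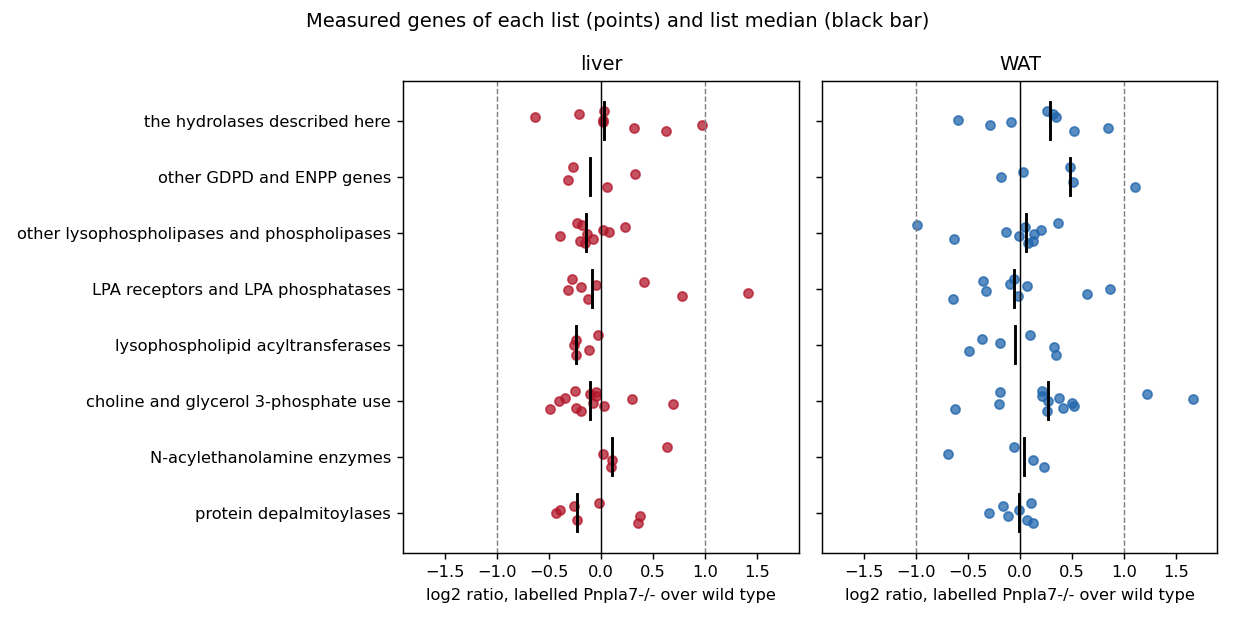
Log2 ratio of labelled Pnpla7-/- over wild type for each measured gene of the 8 hydrolases and of 7 lists of related genes, in liver (left) and WAT (right). Points are genes, black bars list medians, dashed lines 2-fold. Past 2-fold lie Lpar4 in liver and Enpp1, Gk and Gpd2 in WAT.

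Likeness of pattern was measured as the distance between log2 levels on the 4 arrays after each gene's own mean was taken off, over 14887 genes measured on all 4 arrays. The likeness rests on 4 arrays and describes these arrays alone. Nearest to Gdpd1 were Smc2 (distance 0.08), Miga1 (0.10) and Mcm4 (0.13), with 10 genes within a distance of 0.2. Nearest to Gpcpd1 were Ankrd2 (0.05), Fam228b (0.05) and Adcy9 (0.11), with 18 genes within 0.2. Nearest to Enpp2 were Pou4f1 (0.12), Bag2 (0.12) and Gm6567 (0.13), with 13 genes within 0.2. Some of these genes were dim, with highest levels of 0.032 for Pou4f1, 0.043 for Gm6567 and 0.081 for Fam228b. The pattern of Gdpd1 itself depends on the background correction, with a liver ratio of 0.97, and 0.34 with normexp at an offset of 50.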

How the data were processed

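Each of 4 samples was 1 one-colour Cy3 array, labelled from 200 ng of pooled RNA per the labels, all on 1 slide with 1 scan time. The deposited intensities were read by Agilent Feature Extraction 11.0.1.1 (submitters' processing notes). Per the file headers they were corrected for background and detrended, and they carry no normalization between arrays. The authors' further table holds a linear ratio, the processed signal over 1 constant per array (the 75th percentile, 1764, 1470, 1613 and 1690 for labelled Pnpla7-/- liver, wild-type liver, labelled Pnpla7-/- WAT and wild-type WAT). Its scale, centring (none) and direction were settled against the scanner files, its column medians were 0.0751, 0.0737, 0.0875 and 0.0876, and it was used as an alternative.

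Spots flagged as outliers (79 to 110 per array) were left out, and log2 of the processed signal minus the 75th percentile was averaged over spots. To be measured in a pair of arrays, a probe needed, on each of them, over a 0.5 share of spots well above background and no saturation. Ratios of such probes were averaged for each gene. Probes were named through a RefSeq table of GRCm38.p6, used for names only (27234 by accession, 3576 by symbol, 565 by synonym, 8054 unnamed). The update brought 0 further probes into the hydrolases. Each group had 1 array, so genes were counted at 2-fold and not tested.

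The hydrolases, the lists and the 3 genes compared by pattern were chosen with earlier results of these data known. Named were all hydrolases, list genes at 2-fold, otherwise up to 3 per list and tissue, and the 3 nearest genes by pattern. The gene summary was tested on simulated data. R 4.3.3 with limma 3.58.1 and Python 3.11.15 with pandas 2.3.3 were used. Alternatives were normexp at offsets of 50 and 0, quantile normalization, the percentile over probes detected on all arrays, the authors' table, no filter and the brightest probe. Signal over background and the number of arrays limit the precision.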

Additional observations from a re-analysis of the deposited data

Results flagged for a closer look

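For 5 genes the log2 ratio of labelled Pnpla7-/- over wild type had opposite signs in the 2 tissues. The share of all genes with opposite signs is not given, so the count is not read as particular to these genes. The difference, WAT minus liver, was -1.27 for Gdpd1, 0.99 for Gpcpd1, -0.61 for Gdpd5, 0.53 for Lypla1 and -0.11 for Gdpd3. It was not tested, since each group is 1 array. For Gdpd1 the liver ratio (0.97) exceeded 2 model errors and the WAT ratio (-0.29) did not, and for Gpcpd1 likewise (-0.64 in liver, 0.35 in WAT). For Lypla1 the WAT ratio (0.32) did and the liver ratio (-0.21) did not. Gdpd5 was at -0.59 in WAT, beyond 2 model errors, and at 0.02 in liver, within the error. Gdpd3 had ratios of 0.02 in liver and -0.08 in WAT, both within the error. With normexp at offsets of 50 and 0 the Gdpd5 liver ratio was -0.32 and -0.35, and that of Gdpd3 -0.08 at both. Those signs are the same as in WAT.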

How the results depend on the processing

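The 7 alternatives gave the following changes. With the 75th percentile over detected probes 1 of the hydrolases (Gdpd1) reached 2-fold in liver, where 2.72% of all genes did. With no filter on dim probes 1 (Enpp6, not above background) did in WAT, where 6.34% of all genes did. Both stand against 0 in the main setting. With no filter, 5 in place of 4 differed by 2-fold between wild-type tissues, where 32.8% of all genes did. The other counts did not change. Medians over the hydrolases moved by less than the pooled SD between probes of a gene, which is 0.20 in liver and 0.23 in WAT but 0.67 and 0.63 between tissues of wild type and of labelled Pnpla7-/-. The median between labelled Pnpla7-/- tissues was -0.14, and 0.16 after quantile normalization. Of 280 single ratios and differences under alternatives, 272 moved by less than that SD (for differences, the root sum of squares of the liver and WAT SDs), and the 8 others were those of Gdpd1 and Gdpd5 that rest on liver with normexp. The wide SD between tissues lets larger shifts pass there: between wild-type tissues Gdpd5 was at 2.59 and at 1.92 with normexp at an offset of 50, and Gdpd1 at 0.68 and 0.12, while after quantile normalization Enpp2 was at 0.50 in place of 0.08 and Lypla2 at -0.04 in place of -0.50. Liver ratios of Gdpd1 were 0.34 and 0.42, and those of Gdpd5 -0.32 and -0.35, at offsets of 50 and 0, and their differences between tissues were -0.54 and -0.67, and -0.18 and -0.17. The cause was not tested. Below 2-fold, signs also turned for Gdpd3 in liver (-0.08 to 0.06) and, between labelled Pnpla7-/- tissues, for Enpp2 (-0.04 to 0.31) and Lypla2 (-0.27 to 0.01). Over all genes, 411 differed by 2-fold in liver (66.4% higher), 345 with normexp at an offset of 50 (29.9% higher), 1580 at an offset of 0 (7.15% higher) and 1156 with no filter. In WAT 674 did, 379 with normexp at an offset of 50 and 1416 with no filter. Between wild-type tissues the share higher in WAT was 53.8%, 43.4% at an offset of 50 and 37.7% at an offset of 0. Normexp moved the median of all genes by -0.16 in liver and by -0.25 between wild-type tissues. No paired analysis was possible because each group has 1 array.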
